A study of Oryza sativa with 13 samples.

Results

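DNA methylation maps of rice endosperm at 3 days after pollination (DAP) were compared with those at 2 DAP. The members are 2 peak lists, chosen by the labels from the 7 lists of the japonica cultivar ZH-11 (Zhonghua11). Endosperm at 3 DAP had 36511 peaks and endosperm at 2 DAP had 32986 peaks, of 302642 peaks in all 7 lists. The series profiles hand-dissected embryo (3, 6 and 9 DAP) and endosperm (2, 3, 6 and 9 DAP) by methylated DNA immunoprecipitation and sequencing, in which fragments captured by an antibody against 5-methylcytosine are sequenced. All plants grew under the same light and temperature cycle, no treatment separates the groups, and each stage was 1 library. The peak lists carry no expression values, so the tissue labels were not checked against marker genes. A tag is 1 aligned read, and the libraries held 7268516 filtered tags at 3 DAP and 6833917 at 2 DAP, a ratio of 1.06.

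The endosperm arises beside the embryo from double fertilisation and feeds it. Its nuclei first divide without cell walls, and walls then close around them in the first days of seed growth, so early sampling spans a change in how the tissue is built. Cytosine methylation in plants occurs in CG, CHG and CHH contexts and is dense over transposons and other repeats, where it is associated with silencing. In rice endosperm the maternal genome is known for lower methylation than that of other tissues at many sites, through demethylation that begins in the central cell before fertilisation. The antibody assay used here does not separate sequence contexts or parental alleles.

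A peak was called gained when it was listed at 3 DAP with no 2 DAP peak overlapping it by 1 bp, and lost when it was listed at 2 DAP with no overlapping 3 DAP peak. All other peaks of either list were kept. A missing peak means that none was listed there, not that methylation was absent. With 1 library per stage the differences have no replicate check and no test was run. The intervals given with shares of peaks are exact Clopper-Pearson intervals at 95% and cover counting error only.

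More peaks were gained than lost, and both kinds were short and weak compared with the peaks that stayed. The direction depends on the lengths of the lists, since with equal numbers of highest-scoring peaks 6987 (21.2%) were gained and 7605 (23.1%) lost. In the full lists, at 3 DAP 9081 of 36511 peaks, 24.9% (24.4 to 25.3), were gained. At 2 DAP 6435 of 32986 peaks, 19.5% (19.1 to 19.9), were lost. The gained peaks covered 9.13 Mb and the lost peaks 6.75 Mb, while 33.2 Mb was covered in both lists. The net difference in covered length was 0.528 Mb, higher at 3 DAP, a small amount beside this turnover, and it was -2.59 Mb with equal numbers of peaks. Gained peaks held 16.5% of the tags in 3 DAP peaks, and lost peaks held 12.8% of the tags in 2 DAP peaks.

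Gained peaks were shorter than lost peaks. The median length was 776 bp for gained peaks (quartiles 625 and 1044) and 897 bp for lost peaks (quartiles 730 and 1148.5). Kept peaks had a median of 1061 bp at 3 DAP and 1186 bp at 2 DAP, so the 3 DAP list was shorter in both classes. Peaks under 500 bp numbered 1612 at 3 DAP and 341 at 2 DAP, and 866 of the 1612 were gained. Among such short peaks 53.7% were gained and 47.2% were lost, and the shares were 16.1% and 17.1% between 1000 and 1500 bp.

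**Figure D1:**
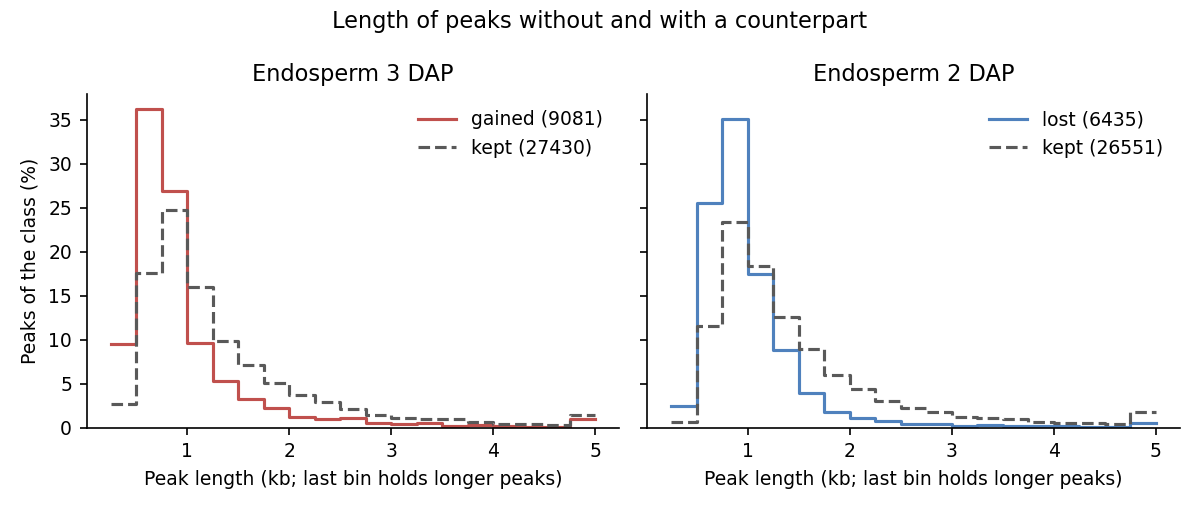
Length of peaks in bins of 0.25 kb, as the percentage of peaks in each class, for endosperm at 3 DAP (left, gained and kept) and 2 DAP (right, lost and kept). The gained peaks have a median of 776 bp and the lost peaks 897 bp, both left of the kept peaks of their own list.

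Tag levels had the same order as the lengths. Tags per 1000000 filtered tags (RPM) had a median of 6.47 in gained peaks and 7.90 in lost peaks, against 12.0 in kept peaks at 3 DAP and 12.7 in kept peaks at 2 DAP. Per kb of peak, the medians were closer together, with 8.47 RPM per kb in gained peaks and 8.76 in lost peaks, against 11.1 in kept 3 DAP peaks and 10.4 in kept 2 DAP peaks. Gained and lost peaks lay at similar distances from the nearest peak of the other list. The nearest 2 DAP peak was 2432 bp away from a gained peak at the median, and the nearest 3 DAP peak was 2451 bp away from a lost peak. Such a neighbour lay within 200 bp of 6.43% of gained and 5.86% of lost peaks, within 1 kb of 27.2% and 26.7%, and beyond 10 kb for 9.29% and 9.87%.

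Which share was larger, gained or lost, changed with the deposited score. This score is the authors' value, 10 times the negative log10 of the peak's p-value, and it starts at 50. Many gained and lost peaks lay near that limit, with 49.4% of gained and 41.4% of lost peaks scoring under 75. In that range 54.8% (53.7 to 55.8) of 3 DAP peaks were gained and 36.0% (34.9 to 37.1) of 2 DAP peaks were lost. The order was the other way round for strong peaks. At scores of 300 or more, 40 of 5768 3 DAP peaks were gained, 0.693% (0.496 to 0.943), while 228 of 4579 2 DAP peaks were lost, 4.98% (4.37 to 5.65). At scores of 500 or more, 3 of 1596 were gained and 39 of 1031 were lost. So the lost share was the larger among the strongest peaks, while the larger gained share of the full lists was not kept with lists of equal length.

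**Figure D2:**
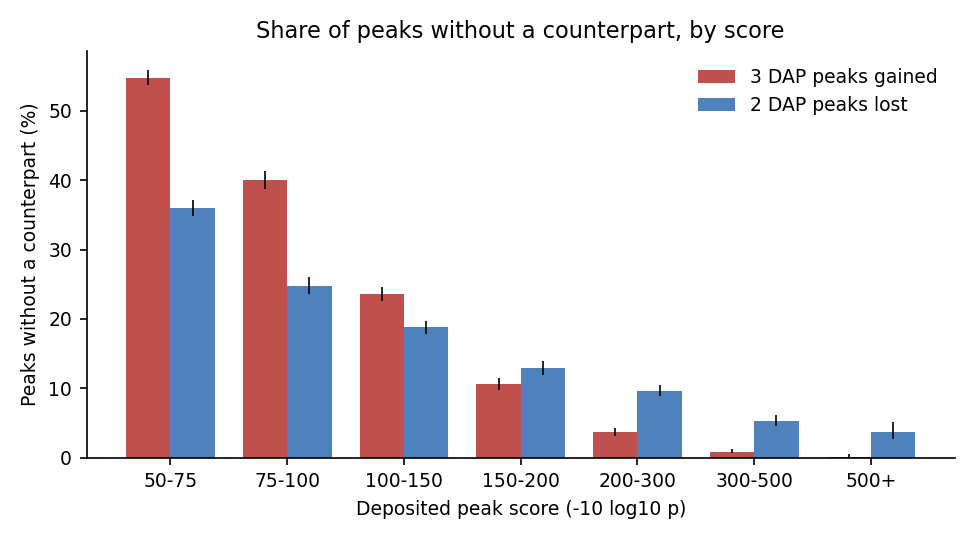
Percentage of peaks without a counterpart in the other list, by deposited score (negative log10 p times 10), for 3 DAP peaks gained and 2 DAP peaks lost, with exact 95% intervals for counting error. The gained share exceeds the lost share below a score of 150 and is below it at higher scores, with 0.693% gained and 4.98% lost at 300 or more.

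The strong lost peaks were compact and highly enriched. Their median length was 1314 bp (quartiles 1116 and 1545.75) and their median fold enrichment over the local background, also the authors' value, was 10.4. The 4351 kept 2 DAP peaks of the same scores had a median length of 1657 bp and a fold enrichment of 9.06. The 40 strong gained peaks were of another kind, with a median length of 2339 bp and a fold enrichment of 5.71, against 1596.5 bp and 9.24 for the 5728 strong kept peaks at 3 DAP. Strong lost peaks were found on all 12 chromosomes, at 2.75% of the strong 2 DAP peaks of chromosome 7 up to 6.68% of those of chromosome 2.

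The other 5 ZH-11 libraries give a readout that the definition of gained and lost did not use. Kept peaks had an overlapping peak in endosperm at 6 DAP for 94.0% of kept 3 DAP peaks and 94.5% of kept 2 DAP peaks, and in embryo at 9 DAP for 82.3% and 83.5%. In all 5 other libraries were 68.8% of kept 3 DAP peaks and 70.4% of kept 2 DAP peaks. Of the gained peaks 54.9% (53.9 to 55.9) were listed in endosperm at 6 DAP, 60.4% (59.4 to 61.4) in endosperm at 9 DAP and 57.8% (56.7 to 58.8) in embryo at 3 DAP. Of the lost peaks 50.8% (49.5 to 52.0) were listed in endosperm at 6 DAP, 36.0% (34.8 to 37.2) in endosperm at 9 DAP and 32.2% (31.0 to 33.3) in embryo at 3 DAP. In none of the 5 other libraries were 926 gained peaks, 10.2%, and 1701 lost peaks, 26.4%. The embryo lists were longer than the endosperm lists, with 51509 peaks at 3 DAP.

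Among strong peaks the lost and gained peaks stood further apart in embryo. Of the 228 strong lost peaks 188, 82.5% (76.9 to 87.2), had a peak in endosperm at 6 DAP and 127, 55.7% (49.0 to 62.3), at 9 DAP. In embryo at 3 DAP 59 of them, 25.9% (20.3 to 32.1), had a peak. Of the 40 strong gained peaks 33 had a peak in endosperm at 6 DAP and 37 in embryo at 3 DAP. Both classes were below the kept peaks of the same scores in endosperm at 6 DAP, where 99.9% of kept peaks of either list had a peak. In embryo at 3 DAP 99.2% of the strong kept 3 DAP peaks and 95.1% of the strong kept 2 DAP peaks had one. Most strong lost peaks were therefore missing from the 3 DAP endosperm list but listed again at 6 DAP, and most were not listed in embryo at 3 DAP. Their later levels were lower. The 188 listed at 6 DAP had a median of 10.3 RPM there, against 18.1 RPM at 2 DAP. The 127 listed at 9 DAP had 7.77 RPM there, against 18.1 RPM at 2 DAP. Lower levels elsewhere can follow from choosing peaks by their score at 2 DAP. The part of embryo tissue in the endosperm samples was not tested.

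**Figure D3:**
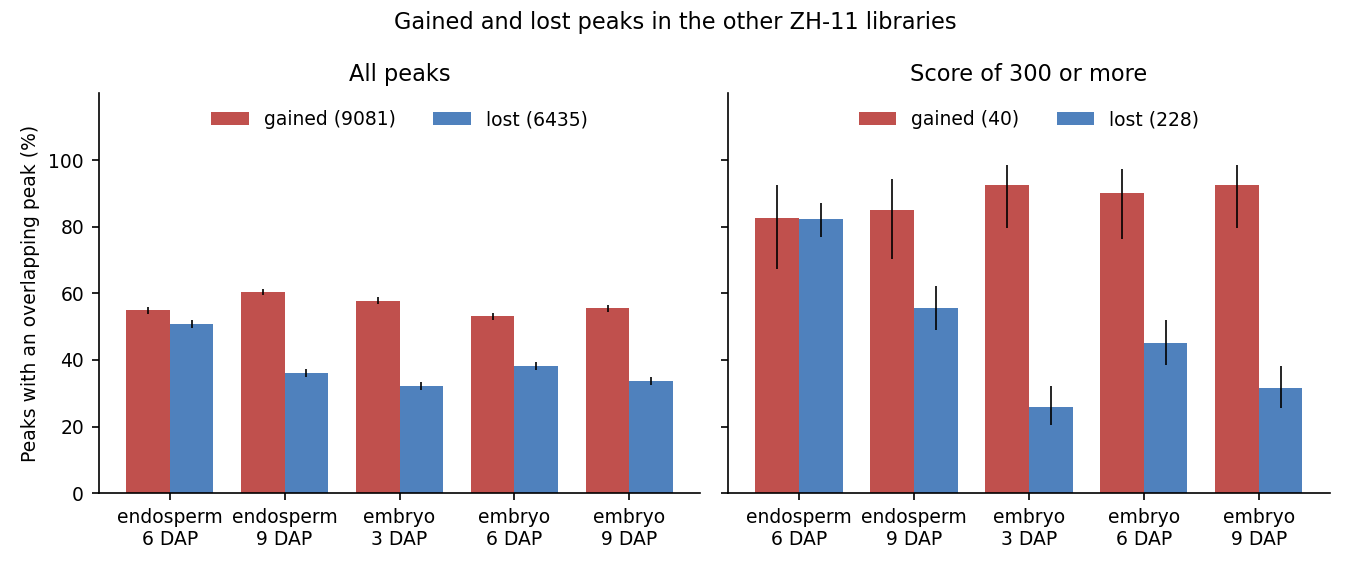
Percentage of gained and lost peaks with an overlapping peak in each of the other 5 ZH-11 libraries, for all peaks (left) and for peaks with a score of 300 or more (right), with exact 95% intervals for counting error. Strong lost peaks are listed in 82.5% of cases in endosperm at 6 DAP and in 25.9% in embryo at 3 DAP, while strong gained peaks are listed in 82.5% and 92.5%.

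Peaks of the 4 endosperm lists were also merged into regions, using the same libraries. Of 46028 such regions 1658 had a peak at 2, 6 and 9 DAP but none at 3 DAP, and 3442 had a peak at 3, 6 and 9 DAP but none at 2 DAP. The numbers missing only at 6 DAP and only at 9 DAP were 783 and 1524. Presence in embryo differed between these sets. Of the regions missing only at 3 DAP 28.2% had a peak in all 3 embryo libraries, compared with 51.2% of those missing only at 2 DAP, 51.2% of those missing only at 6 DAP and 59.5% of those missing only at 9 DAP. Regions found at a single endosperm stage numbered 2303 at 3 DAP and 2626 at 2 DAP, and 33.3% and 18.7% of them were in all 3 embryo libraries. For those found only at 6 DAP (1751) and only at 9 DAP (2642) the share was 28.8% each. Over all 46028 regions it was 58.4%, and among those with a peak at all 4 stages it was 80.9%.

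The following 3 peaks were picked for their score after the values were seen, and coordinates are those of the authors' files, whose genome build is not given in the sources used here. On chromosome 2 from 17281141 to 17282679 there was no listed peak at 3 DAP, against 261 tags (38.2 RPM) at 2 DAP, and 168 tags (23.0 RPM) and 112 tags (15.0 RPM) were listed in endosperm at 6 and 9 DAP. Of the embryo libraries only that at 6 DAP had a peak here, with 5.35 RPM. On chromosome 1 from 4231954 to 4233675 there was no listed peak at 3 DAP, against 33.9 RPM at 2 DAP, followed by 24.9 RPM at 6 DAP and 5.89 RPM at 9 DAP, and embryo had 4.96 RPM at 3 DAP and 9.11 RPM at 6 DAP. On chromosome 8 from 14582575 to 14583882 no peak was listed at 3 DAP, against 24.1 RPM at 2 DAP, with 10.8 RPM at 6 DAP and no listed peak at 9 DAP or in embryo. Peaks picked as the highest at 2 DAP can have lower levels elsewhere from that choice alone.

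The strongest gained peaks, picked in the same way, were longer. On chromosome 12 from 20497608 to 20500956 endosperm at 3 DAP had 787 tags (108 RPM) at a score of 953.18, and none of the other 6 ZH-11 libraries listed a peak. It was the single strong gained peak found in no other ZH-11 list. On chromosome 4 from 17281690 to 17286754 there were 102 RPM at 3 DAP and no listed peak at 2 DAP, with 86.0 RPM in endosperm at 6 DAP, none at 9 DAP and 49.9 to 65.0 RPM in embryo. On chromosome 9 from 7022228 to 7024969 there were 73.2 RPM at 3 DAP and none listed at 2 DAP, with 51.4 RPM in endosperm at 9 DAP, none at 6 DAP and 44.2 to 49.2 RPM in embryo.

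The 5 gained and 5 lost peaks with the highest RPM were all long, with scores of 56.75 to 142.36 for the gained and 75.74 to 156.8 for the lost peaks. The background of each peak was taken over 10 kb of the same library, so for a long peak that window holds much of the peak itself, and an unlisted long peak can hold many tags. The effect of this on the long peaks was not tested. Of peaks of at least 5 kb, 83 of 395 at 3 DAP were gained, 21.0% (17.1 to 25.4), and 34 of 428 at 2 DAP were lost, 7.94% (5.56 to 10.9). Over peaks of all lengths the shares were 24.9% and 19.5%, and between 3000 and 5000 bp they were 11.4% and 5.94%. At 5 kb or more the median scores were 103 for the gained and 127 for the lost peaks, and the median fold enrichments 3.44 and 3.56. In embryo at 3 DAP 71 of the 83 gained (85.5%) and 25 of the 34 lost peaks (73.5%) had a counterpart, against 39 and 15 in endosperm at 6 DAP. Kept peaks of this length had higher shares. In embryo at 3 DAP these were 96.5% of kept 3 DAP peaks and 95.9% of kept 2 DAP peaks. In endosperm at 6 DAP they were 92.3% and 93.7%.

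The 5 gained peaks with the highest level lay between 173 and 209 RPM at 3 DAP and were 7354 to 8735 bp long. The highest, on chromosome 10 from 14244624 to 14251977, had 1518 tags (209 RPM) at 3 DAP and no listed peak at 2 or 6 DAP, yet 1372 tags (184 RPM) at 9 DAP and 58.6 to 113 RPM in embryo. The longest, on chromosome 10 from 12905495 to 12914229, had 184 RPM at a score of 56.77 and was listed in no other library, as was the peak on chromosome 6 from 26050923 to 26059200 with 175 RPM. The peak on chromosome 2 from 33234479 to 33242346, with 177 RPM, was listed in all 3 embryo libraries and in no other endosperm library. The last of these, on chromosome 11 from 14790825 to 14799439 with 173 RPM, was listed in embryo at 6 and 9 DAP.

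The 5 lost peaks with the highest level lay between 119 and 135 RPM at 2 DAP. The highest, on chromosome 6 from 21623230 to 21630412, had 925 tags at 2 DAP and was listed in no other endosperm library, with 53.5 and 66.1 RPM in embryo at 6 and 9 DAP. Those on chromosome 3 from 20728958 to 20736356 (127 RPM) and on chromosome 8 from 16274384 to 16281216 (124 RPM) were also listed at no later endosperm stage but in all 3 embryo libraries. The peak on chromosome 11 from 18846192 to 18853355 (119 RPM) was listed elsewhere in embryo at 9 DAP alone. On chromosome 1 from 9837768 to 9845204 a level of 119 RPM at 2 DAP was followed, after no listed peak at 3 DAP, by 124 RPM at 6 DAP and 108 RPM at 9 DAP. The longest lost peaks also included chromosome 5 from 29432707 to 29440492 (7786 bp) and chromosome 8 from 7678849 to 7686529 (7681 bp), listed in all 3 embryo libraries and at no later endosperm stage.

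Kept peaks formed 25987 regions, of which 24162, 93.0%, joined a single peak of each list. In these single pairs the peak was shorter at 3 DAP in 13707, 56.7%, and longer in 10403, 43.1%. The median length was 1062 bp at 3 DAP and 1155 bp at 2 DAP, and the median difference within pairs was -37 bp (quartiles -214 and 111). Peaks were also more divided at 3 DAP. Of 2 DAP peaks 1395, 4.23%, overlapped at least 2 3 DAP peaks, while 558 of the 3 DAP peaks, 1.53%, overlapped at least 2 2 DAP peaks. The most divided 2 DAP peaks overlapped 4 3 DAP peaks each, as on chromosome 10 from 13191053 to 13197594, chromosome 1 from 13309219 to 13312793 and chromosome 2 from 27862234 to 27865308. On chromosome 10 the 4 peaks at 3 DAP held 365 tags and the single peak at 2 DAP held 512. In the other direction a 3 DAP peak overlapped at most 3 2 DAP peaks, as on chromosome 5 from 17259704 to 17264737, with 547 tags at 3 DAP and 410 at 2 DAP, chromosome 1 from 22029927 to 22033555 and chromosome 9 from 6568506 to 6571287.

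Most kept regions had similar tag levels at both stages, and the larger differences were mostly lower at 3 DAP. The median was 12.5 RPM at 3 DAP and 12.9 RPM at 2 DAP. Within regions the median log2 ratio of 3 DAP over 2 DAP was 0.08, with quartiles of -0.30 and 0.38, and 90.8% of regions were within 2-fold. At least 2-fold higher at 3 DAP were 725 regions, 2.79%, and at least 2-fold lower were 1677 regions, 6.45%. Peaks held 57.4% of the filtered tags at 3 DAP and 53.0% at 2 DAP. Scaled to tags in peaks instead, the median log2 ratio moved by -0.12 and the numbers were 494 higher and 2138 lower, so the higher share of the called regions was 18.8% in place of 30.2%.

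Few of the regions called at 2-fold also passed 2-fold per kb, 11 of the 725 and 148 of the 1677, and the length of the called peak differed too. Regions 2-fold higher had a median peak length of 2128 bp at 3 DAP and 1032 bp at 2 DAP, and those 2-fold lower had 805 bp at 3 DAP and 1548 bp at 2 DAP. Tags are counted only inside called peaks, so a shorter peak holds fewer. The level per kb moved the same way as the length. In the regions 2-fold higher its median was 11.0 RPM per kb at 3 DAP and 8.77 at 2 DAP. In those 2-fold lower it was 8.58 at 3 DAP and 12.2 at 2 DAP. Whether length or level gave the 2-fold differences was not tested. Per kb, 59 of the 24162 single pairs were at least 2-fold higher at 3 DAP, 0.244%, and 144 were at least 2-fold lower, 0.596%. The median in single pairs was 11.0 RPM per kb at 3 DAP and 10.3 at 2 DAP, a median log2 ratio of 0.13. This ratio was larger in longer regions, at 0.13 for pairs under 750 bp, 0.09 between 1000 and 1500 bp, and 0.25 at 5000 bp or more.

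**Figure D4:**
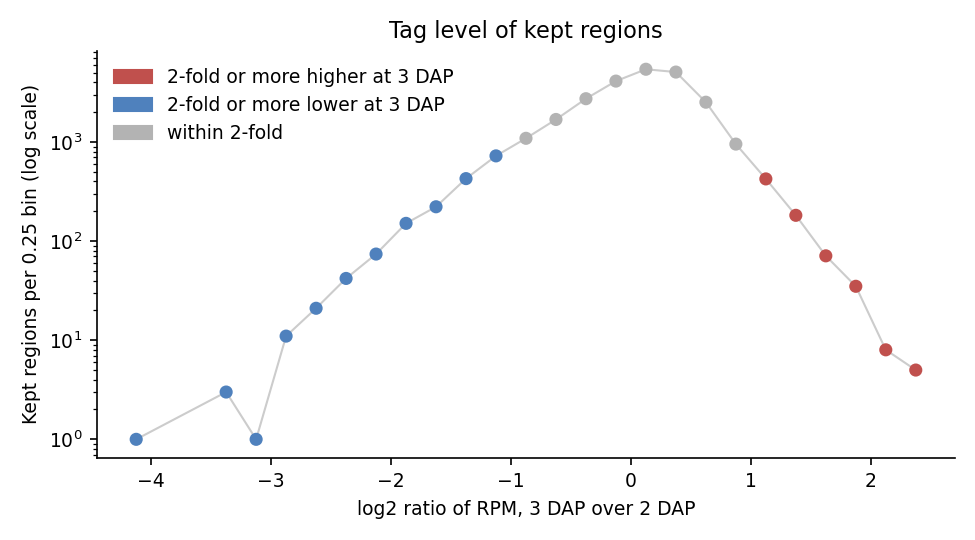
Number of kept regions (log axis) by log2 ratio of RPM, 3 DAP over 2 DAP, in bins of 0.25, with a point for each bin that holds a region and colours for the 2-fold classes. The left tail is heavier, with 1677 regions at least 2-fold lower and 725 at least 2-fold higher at 3 DAP.

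Regions that were 2-fold lower at 3 DAP had intermediate levels at the later endosperm stages. These regions were chosen by their ratio between 3 and 2 DAP, so their levels at those stages are a description, and values between the chosen extremes can follow from that choice. Where a peak was listed, the median was 6.88 RPM at 3 DAP and 19.0 RPM at 2 DAP, with 13.3 RPM in endosperm at 6 DAP and 10.4 RPM at 9 DAP. A peak was listed in embryo at 3 DAP in 67.9% (65.6 to 70.1) of these regions, in 89.8% (87.4 to 91.9) of the regions 2-fold higher, and in 87.1% (86.7 to 87.5) of all kept regions. The regions 2-fold higher had 22.7 RPM at 3 DAP and 9.22 RPM at 2 DAP, with 16.3 and 18.4 RPM at 6 and 9 DAP.

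The lowest ratios belonged to regions with a long peak at 2 DAP and a short one at 3 DAP. On chromosome 8 from 18414487 to 18420022 endosperm had 53 tags (7.29 RPM) at 3 DAP and 903 tags (132 RPM) at 2 DAP, a log2 ratio of -4.18, and the peak was 891 bp long at 3 DAP and 5536 bp long at 2 DAP. This region also differed per kb, with 8.18 RPM per kb at 3 DAP and 23.9 at 2 DAP, and had 45.6 RPM at 6 DAP and 31.6 RPM at 9 DAP. It was listed in all 3 embryo libraries, with 4.47, 12.5 and 4.51 RPM at 3, 6 and 9 DAP. The next were on chromosome 2 from 22958322 to 22962795 (log2 ratio -3.47), chromosome 4 from 7418076 to 7422785 (-3.41), chromosome 1 from 32373213 to 32377459 (-3.27) and chromosome 7 from 10184993 to 10188340 (-3.21). Each of these 4 had 4.82 to 5.78 RPM at 3 DAP and 45.8 to 55.9 RPM at 2 DAP, with 13.7 to 24.0 RPM at 6 DAP. These regions were also lower per kb, with 6.98 to 9.46 RPM per kb at 3 DAP and 11.9 to 13.7 at 2 DAP. No embryo library listed a peak in those on chromosomes 2, 4 and 7, and on chromosome 1 the embryo at 6 DAP alone did, with 4.37 RPM.

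The highest ratios were smaller in size, and their regions were listed in embryo, as was the region with the lowest ratio on chromosome 8. On chromosome 4 from 3021720 to 3026622 endosperm had 390 tags (53.7 RPM) at 3 DAP and 65 tags (9.51 RPM) at 2 DAP, a log2 ratio of 2.50, in a peak of 4903 bp at 3 DAP and 946 bp at 2 DAP. The others were on chromosome 12 from 15816058 to 15819482 (2.45), chromosome 9 from 2430812 to 2433903 (2.44), chromosome 2 from 18789724 to 18793360 (2.33) and chromosome 5 from 12373263 to 12378312 (2.27). All 5 were listed at every stage of both tissues. Their levels per kb were close at both stages, from 8.19 to 12.7 RPM per kb at 3 DAP and from 7.45 to 10.4 at 2 DAP.

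Gains and losses were found at similar shares on the 12 chromosomes. The gained share ran from 23.3% on chromosome 1 to 26.4% on chromosome 11, and the lost share from 18.2% on chromosome 5 to 20.3% on chromosome 9. All 12 chromosomes had more peaks at 3 DAP, by ratios of 1.08 to 1.15, and more gained than lost peaks. Covered length was lower at 3 DAP on chromosomes 1, 3, 6 and 8 and higher on the other 8 chromosomes. Chromosome 5 had 4.19 Mb at 3 DAP and 3.97 Mb at 2 DAP, the highest ratio at 1.05, and chromosome 3 had 3.97 Mb at 3 DAP and 4.09 Mb at 2 DAP, the lowest at 0.971.

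In 1 Mb bins the ratio of covered length was highest where embryo peaks were densest. The bins were ranked by the mean covered length of the 3 embryo libraries, which the comparison does not use, and divided into 5 quintiles. In the richest quintile endosperm peaks covered 186 kb per Mb at 3 DAP and 178 at 2 DAP, and 53 of 73 bins were higher at 3 DAP. In the poorest quintile they covered 78.9 kb per Mb at 3 DAP and 79.7 at 2 DAP, and 34 of 74 bins were higher at 3 DAP. The ratios of 3 DAP over 2 DAP from the poorest to the richest quintile were 0.990, 0.979, 1.01, 1.01 and 1.05. The direction in single quintiles depends on which peaks are used. Restricted to a fold enrichment of at least 5 the ratio was above 1 in each quintile, and with equal numbers of highest-scoring peaks it was below 1 in each. Over all 367 bins, 186 were higher and 181 lower at 3 DAP. The gained share of peaks was similar across quintiles, 25.8% in the poorest and 24.1% in the richest, while the lost share was 20.6% in the poorest and 17.9% in the richest.

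**Figure D5:**
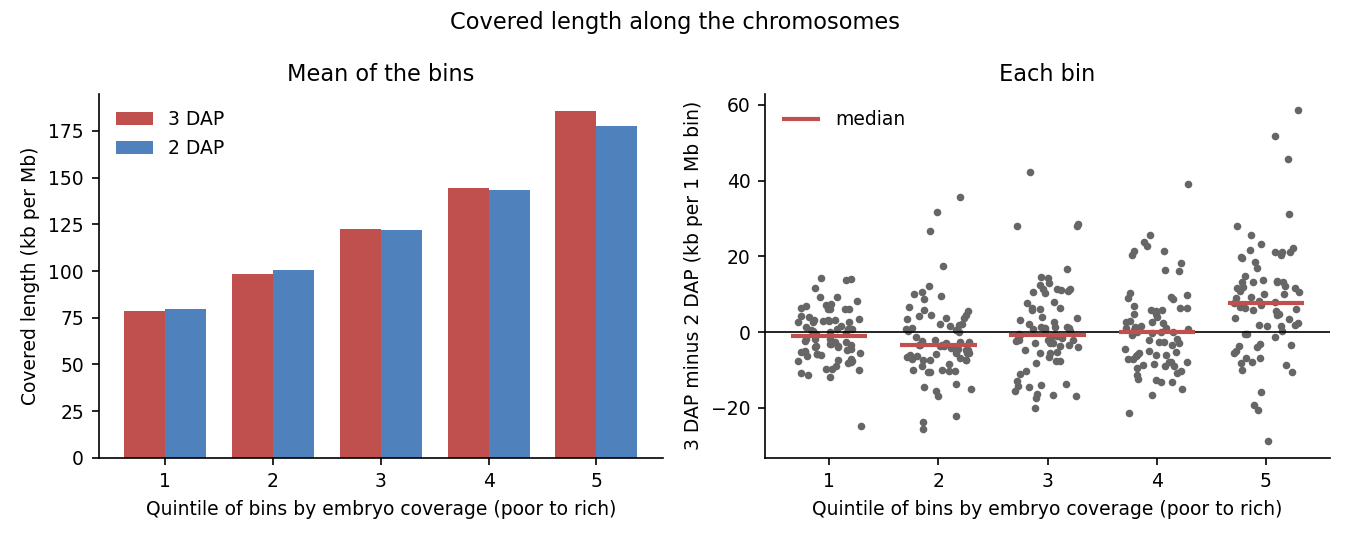
Covered length in 1 Mb bins by quintile of embryo coverage, as the mean at 3 DAP and 2 DAP (left, kb per Mb) and as the difference 3 DAP minus 2 DAP of each bin (right, kb per bin, red lines at the median). In the richest quintile 53 of 73 bins lie above 0, and the medians of the other quintiles are between -3.36 and 0.023 kb.

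Single bins differed by up to 58.7 kb. The 5 largest gains were on chromosome 11 from 11000001 to 12000000, with 236 kb at 3 DAP and 178 kb at 2 DAP, on chromosome 3 from 19000001 to 20000000, with 301 and 249 kb, and in 3 bins of chromosome 5 between 9000001 and 13000000. The chromosome 5 bins starting at 9000001, 10000001 and 12000001 were higher by 42.2, 45.6 and 39.1 kb. In the chromosome 11 bin 49 of 136 peaks at 3 DAP were gained and 23 of 107 peaks at 2 DAP were lost. Over all peaks the shares were 24.9% and 19.5%. The 5 largest losses were smaller. They were on chromosome 1 from 11000001 to 12000000, with 143 kb at 3 DAP and 172 kb at 2 DAP (-28.8 kb), chromosome 11 from 19000001 to 20000000 (-25.5 kb), chromosome 1 from 23000001 to 24000000 (-24.7 kb), chromosome 6 from 9000001 to 10000000 (-23.8 kb) and chromosome 7 from 4000001 to 5000000 (-22.0 kb).

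The other steps between endosperm stages share libraries with this one, so their values are given side by side without a test. From 3 to 6 DAP 17.1% of the 6 DAP peaks were gained and 15.7% of the 3 DAP peaks were lost, and from 6 to 9 DAP 16.3% of the 9 DAP peaks were gained and 17.3% of the 6 DAP peaks were lost. Across the longer interval from 2 to 6 DAP 21.2% of the 6 DAP peaks were gained and 14.0% of the 2 DAP peaks were lost, both below the shares from 2 to 3 DAP. The strong peaks lost, at scores from 300, were 12 of 5768 from 3 to 6 DAP, 14 of 6350 from 6 to 9 DAP and 45 of 4579 from 2 to 6 DAP, compared with 228 of 4579 from 2 to 3 DAP. The strong peaks gained were 74 of 6350 (1.17%) from 3 to 6 DAP, 8 of 4345 from 6 to 9 DAP and 16 of 6350 from 2 to 6 DAP, compared with 40 of 5768 (0.693%) from 2 to 3 DAP. Kept regions at least 2-fold higher at the later stage made up 2.90% from 3 to 6 DAP, 1.34% from 6 to 9 DAP and 1.33% from 2 to 6 DAP, and those at least 2-fold lower made up 1.06%, 1.35% and 2.73% in the same order.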

How the data were processed

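Methylated DNA peaks of ZH-11 endosperm at 3 and 2 DAP, 1 library each, were compared. The other 5 ZH-11 lists were used to look up peaks, rank bins and set the later steps beside this one. The 6 samples of cultivar 93-11 were not analysed here. The submitters' processing notes name Bowtie2 and MACS, without their roles. Per the file headers, peaks were called on each library with MACS 1.4.2 without a control, keeping 1 tag per position, with fragments of 200 bp, a local background over 10 kb, a genome of 360 Mb and p-values up to 1e-05. The genome build is not given in the sources used here, so no gene annotation or sequence was used. Per the labels' protocols libraries had 15 PCR cycles. Copies at the same position were reduced to 1 tag, and whether the remaining tags are independent molecules was not tested.

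The authors deposited a tag count, a score and a fold enrichment ratio for each peak. The counts are whole reads, not scaled to depth. The score and the fold come from the background of the same library. Peaks were intersected and merged in Python 3.11.15 with pandas 2.3.3, tested on simulated lists. The simulated kept peaks had equal lengths in both lists and none was divided, so 2-fold calls with unequal lengths were not covered. RPM is the tag count divided by filtered tags and multiplied by 1000000. Kept regions are merged peaks of both lists, called at 2-fold. The 367 bins were complete 1 Mb bins up to the last peak in any list. Exact intervals used scipy 1.17.1. Alternatives were a score of 100, a fold of 5, equal numbers of peaks, 50% overlap, a gap of 200 bp, the 12 chromosomes without unplaced sequences, other scalings, a minimum of 50 tags and another ranking of bins.

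Named regions were the 5 gained and 5 lost peaks with the highest RPM, the 3 longest of each, the 3 most divided peaks of each list, the 5 highest and 5 lowest ratios among kept regions of at least 100 tags, and the 5 bins with the largest gain and loss. The 3 gained and 3 lost peaks with the highest score were added after the values were seen. The members, lists and rules were chosen with earlier results of these data known.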

Additional observations from a re-analysis of the deposited data

How the results depend on the processing

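With 1 library per stage no replicate could be left out. No paired analysis was possible because each group holds 1 library. Gained and lost numbers stayed within 1.5 times under the alternatives listed before those chosen after seeing the data. These alternatives do not include lookups of scored peaks in the whole other list. The gained and lost shares were 30.4% and 24.2% at a score of 100 or more, 31.8% and 24.2% at a fold of 5 or more, 21.2% and 23.1% with equal numbers of peaks, 27.0% and 23.8% with 50% of the peak covered, and 23.3% and 18.4% with a gap of 200 bp. The score, fold and equal-number settings cut both lists, so a peak whose counterpart fell below the cut counted as gained or lost. The order of the shares turned with equal numbers, where 6987 peaks were gained and 7605 lost. Peaks with a score of 100 or more, looked up in the whole other list, gave 2425 gained (10.6%) and 2536 lost (12.3%), so the order turned there too. Peaks with a score of 200 or more, looked up in the whole other list (chosen after seeing the data), gave 236 gained (2.13%) and 705 lost (7.42%). The covered-length difference was 0.942 Mb at a score of 100, 1.66 Mb at a fold of 5, 0.520 Mb on the 12 chromosomes and reversed to -2.59 Mb with equal numbers, where the shorter 3 DAP peaks cover less. The median length difference was -129, -111 and -95 bp at a score of 100, a fold of 5 and equal numbers, against -135 bp. The median log2 RPM ratio was 0.071, 0.042 and 0.097 in these settings, 0.13 per kb, and reversed to -0.034 when scaled to tags in peaks. Regions 2-fold higher numbered 333 at a score of 100, 429 at a fold of 5 and 59 per kb, and those 2-fold lower 859 at a score of 100 and 163 per kb. The ratio of the poorest quintile minus that of the richest was -0.056, and it was -0.11 at a score of 100, -0.10 at a fold of 5, -0.055 with equal numbers and -0.095 with bins ranked by endosperm at 6 and 9 DAP. Ratios crossing 1 were 1.01 and 1.02 in quintiles 1 and 2 at a fold of 5, 0.995 in quintile 3 at a score of 100, 0.980 in quintile 3 with the other ranking, and 0.935, 0.946 and 0.977 in quintiles 3, 4 and 5 with equal numbers. The cause of these shifts was not tested, beyond what the settings themselves remove. The lists give no tags outside peaks, so a change below the calling limit could not be measured.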
